A study of Mus musculus with 8 samples.

Results

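The genes examined here are 8 markers used for stem and progenitor cells of oral and other stratified epithelia: Lrig1, Lgr6, Lgr5, Sox2, Bmi1, Igfbp5, Dlk2 and Trp63. They were chosen by symbol, and 7 of the 8 had a row among the 33549 gene entries of the count tables; Sox2 is not analysed here. The tables come from tomo-seq, which sequences the barcoded RNA of consecutive slices through a tissue, so that expression can be followed from one end of the block to the other. Each of 8 samples was cut into 20 sections of 14 µm, and transcripts were counted as unique molecular identifiers (UMIs), the random tags that mark single RNA molecules before amplification. All samples came from wild-type C57BL/6J mice, with 2 replicates each of buccal mucosa (the lining of the cheek), hard palate, the upper (dorsal) face of the tongue and its lower (ventral) face. No treatment, age or sex is given in the labels used here. The labels do not say whether 2 replicates of a site came from separate animals, so p-values reflect only how far these samples spread, and that spread may be technical.

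The oral mucosa is a stratified squamous epithelium on a bed of connective tissue, with skeletal muscle beneath it in the cheek and tongue. Its basal layer holds the dividing cells, and their daughters differentiate as they move to the surface. Several of the 7 genes mark slowly or rapidly dividing basal cells in lineage tracing, but most are also transcribed outside epithelium, so that a level in a whole section sums over every cell type in it. In such bulk sections, fewer cells of a type and less RNA per cell cannot be told apart.

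Levels are given as CPM, the UMIs of a gene per 1000000 UMIs of the sample or section. One tag is counted near the 3′ end of a transcript, so levels of different genes can be set side by side without correction for length. Samples held 7830471 to 26376536 UMIs, and 5 sections, in buccal mucosa replicate 1 and both dorsal tongue samples, held under 50000. Buccal mucosa replicate 2 stood apart. Its 20 keratinocyte genes summed to 876 CPM against 12118 to 23678 in the other 7 samples, its 10 basal keratinocyte genes to 455 against 4415 to 9523, and its 14 differentiated keratinocyte genes to 237 against 23203 to 29583. Salivary gland genes summed to 8818 CPM there against 2.07 to 368, adipocyte genes to 6875 against 51.1 to 1097, and skeletal muscle genes to 38562 against 198 to 19522. Every gene of the 3 keratinocyte lists still had UMIs in it. The Spearman correlation of 2 replicates over 7515 genes was 0.56 in buccal mucosa, against 0.89 to 0.94 at the other sites, so each value for buccal mucosa is given for both samples. Results were also computed without each sample in turn, in which case the remaining sample of that site was assumed to vary like the other sites.

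All 7 genes had UMIs in all 8 samples, from 11 UMIs for Dlk2 in buccal mucosa replicate 2 to 14055 for Igfbp5 in ventral tongue replicate 2. Igfbp5 was the most abundant, with a median of 603 CPM over samples, followed by Trp63 at 86.9, Bmi1 at 20.1, Dlk2 at 16.8, Lrig1 at 15.7, Lgr6 at 14.3 and Lgr5 at 7.06 CPM. The ratio of the highest to the lowest sample was 18.5 for Dlk2, 14.3 for Trp63 and 11.3 for Lrig1. It was 7.37 for Lgr6, 6.64 for Igfbp5, 2.51 for Bmi1 and 1.99 for Lgr5. For Dlk2 and Trp63 the lowest sample, and for Lrig1 the highest, was buccal mucosa replicate 2.

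**Figure D1:**
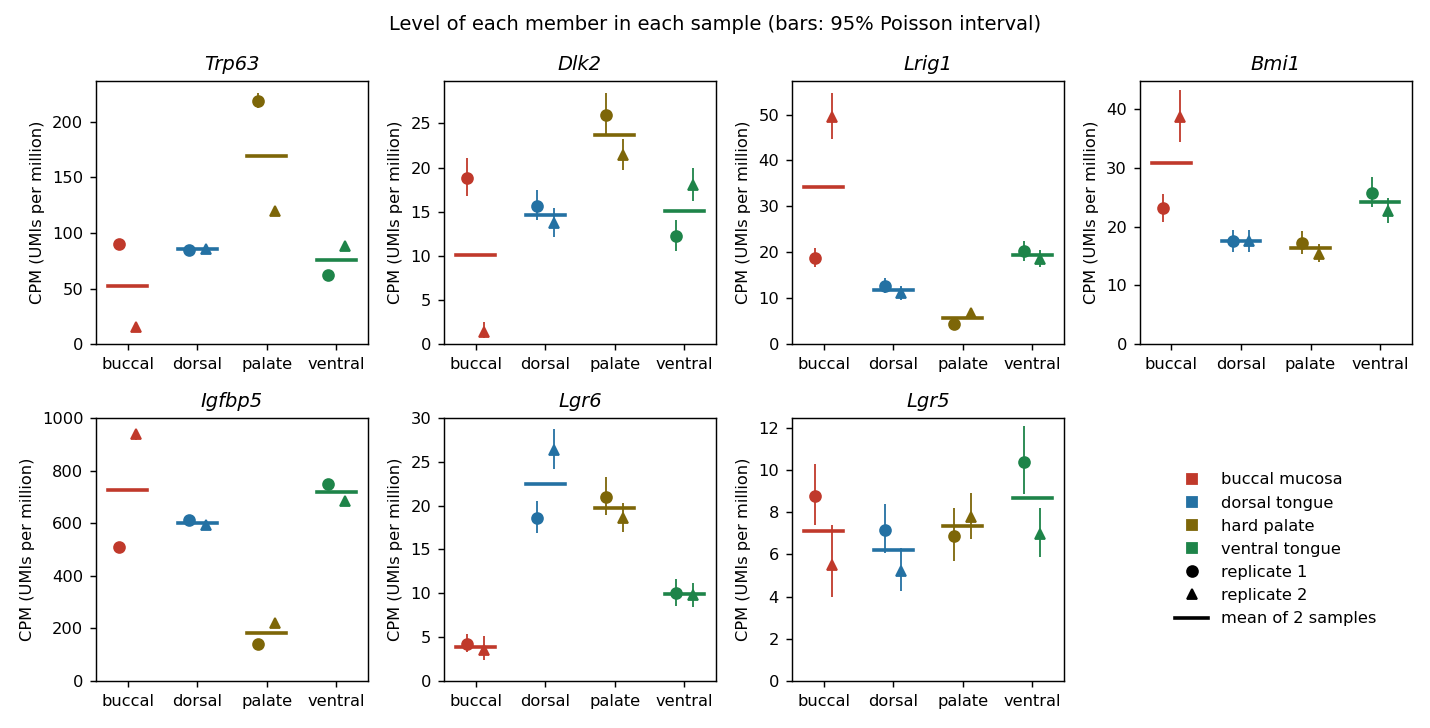
Level of each of the 7 genes in each sample, in CPM on linear axes from 0, by site. Circles are replicate 1 and triangles replicate 2, short lines are the mean of 2 samples, and bars are 95% Poisson intervals of the count, which cover counting error only. Lgr6 was 3.58 and 4.21 CPM in buccal mucosa and 18.5 to 26.4 in dorsal tongue and hard palate, while Igfbp5 and Lrig1 were lowest in hard palate.

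The comparison of the 4 sites asks whether a marker is tied to a place in the mouth. UMIs of all sections of a sample were added up and tested with edgeR's quasi-likelihood test, with Benjamini-Hochberg adjustment over 18609 genes and a threshold of 0.05. Of the 7 genes, only Lgr6 passed the test for any difference between the sites, where 4.77% of all genes passed. The adjusted p from edgeR was 0.0196 for Lgr6, 0.0796 for Lrig1, 0.0868 for Igfbp5, 0.214 for Bmi1, 0.532 for Trp63, 0.704 for Lgr5 and 0.836 for Dlk2. The call of Lgr6 was kept without either buccal sample and lost without any of the other 6. Without buccal mucosa replicate 2, Lrig1 and Igfbp5 also passed, and more of all genes passed than in the fit of all samples. Each of these fits leaves 1 sample at a site.

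Lgr6 encodes a receptor for R-spondins, secreted proteins that raise the response of a cell to Wnt, and marks stem cells of the hair follicle and other skin epithelia. It lies on chromosome 1 (GRCm38, chr1:134983301-135105276, minus strand). Its level was 3.58 and 4.21 CPM in buccal mucosa, 9.74 and 10.01 in ventral tongue, 18.5 and 20.96 in hard palate and 18.6 and 26.4 in dorsal tongue. The site means ran in that order, and only hard palate and dorsal tongue overlapped. Ranges of 2 samples can lie apart without a call, as those of Bmi1 in dorsal and ventral tongue did. The share of all genes with such ranges is not given here. Both buccal samples were low, at 4.21 CPM in replicate 1 and 3.58 CPM, or 28 UMIs, in replicate 2. Their 20 keratinocyte genes summed to 17550 and 876 CPM, and the part of keratinocyte content in the level of Lgr6 was not tested. The mean ± SD was 3.89 ± 0.446 CPM in buccal mucosa, 9.88 ± 0.189 in ventral tongue, 19.8 ± 1.72 in hard palate and 22.5 ± 5.49 in dorsal tongue (n = 2 each).

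Against the mean of the other 3 sites on the log2 scale, Lgr6 fell by 2.12 ± 0.27 (SE) in buccal mucosa, with an edgeR adjusted p of 0.0426, and was the only one of the 7 genes to pass there, where 0.72% of all genes passed and 0.118% passed as lower. It was higher by 1.54 ± 0.22 in dorsal tongue (edgeR adjusted p = 0.0351), again alone among the 7, where 0.838% of all genes passed and 0.795% passed as higher. In hard palate the difference was 0.75 ± 0.23, with an edgeR adjusted p of 0.0866. The call in buccal mucosa was kept without buccal mucosa replicate 1 (adjusted p = 0.00578) and lost without any other sample (0.0677 to 0.205). The call in dorsal tongue was kept without either buccal sample and lost without any of the other 6 (0.108 to 0.538). Without single samples the log2 difference ranged from -2.28 to -2.01 in buccal mucosa and from 1.24 to 1.83 in dorsal tongue.

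Dorsal and ventral tongue are different surfaces of the same organ. Lgr6 was 2.28 times as high on average in dorsal as in ventral tongue, and the 2 sites did not overlap. The log2 difference was 1.28 ± 0.29, with an edgeR adjusted p of 0.482 over all genes, so it did not pass; 0.00537% of all genes did, and 0 of the 7 by edgeR or DESeq2, with 1 at an unadjusted p under 0.05 (Lgr6).

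Lgr5, the close relative of Lgr6 that marks stem cells of the intestine and hair follicle (chr10:115450311-115587780, minus strand), differed least between samples. It measured 5.49 and 8.77 CPM in buccal mucosa, 5.22 and 7.16 in dorsal tongue, 6.88 and 7.77 in hard palate, and in ventral tongue it measured 6.97 and 10.4. The ranges of all 4 sites overlapped each other. Lgr4, the third receptor of the family, was more abundant, at 30.8 ± 8.80 CPM in ventral tongue, 39.8 ± 21.02 in buccal mucosa, 42.4 ± 3.11 in dorsal tongue and 90.1 ± 21.6 in hard palate (SD, n = 2 each). Of the R-spondin ligands, Rspo1 was at 12.9 ± 3.79 CPM in dorsal tongue and 9.90 ± 5.79 in hard palate, and at 4.02 ± 0.175 in ventral tongue and 3.46 ± 0.382 in buccal mucosa. The edgeR adjusted p for any difference between the sites was 0.264 for Lgr4 and 0.102 for Rspo1, so neither passed.

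Lrig1 is a transmembrane protein that lowers signalling by receptors of the epidermal growth factor family, and marks stem cells in skin and intestine (chr6:94604529-94700158, minus strand). Its level was 4.396 and 6.90 CPM in hard palate, 11.1 and 12.7 in dorsal tongue, 18.6 and 20.2 in ventral tongue and 18.8 and 49.6 in buccal mucosa. Hard palate and dorsal tongue lay apart from each other and from the other sites, while ventral tongue and buccal mucosa overlapped.

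Igfbp5 encodes a secreted protein that binds insulin-like growth factors and is made by many mesenchymal cells (chr1:72857932-72874884, minus strand). It measured 141 and 221 CPM in hard palate, 592 and 613 in dorsal tongue, 685 and 751 in ventral tongue and 511 and 938 in buccal mucosa. Hard palate was below all other samples, and the wide buccal range overlapped both tongue surfaces.

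Igfbp5 and Lrig1 were the 2 of 7 genes that passed in hard palate, where 9.76% of all genes passed and 6.42% passed as lower. Igfbp5 fell by 2.21 ± 0.41 on the log2 scale (edgeR adjusted p = 0.0213) and Lrig1 fell by 2.11 ± 0.45 (edgeR adjusted p = 0.0324). Both calls were kept without either buccal sample and lost without any of the other 6, with adjusted p of 0.0666 to 0.194 for Igfbp5 and 0.0802 to 0.240 for Lrig1. The differences then still ran from -2.51 to -1.86 for Igfbp5 and from -2.42 to -1.76 for Lrig1. Skeletal muscle genes summed to 198 and 427 CPM in the 2 hard palate samples and to 11707 to 38562 in the other 6, and the part of this in the 2 results was not tested. In buccal mucosa, Lrig1 differed by 1.60 ± 0.37 (edgeR adjusted p = 0.0925), and by 0.72 without buccal mucosa replicate 2.

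Bmi1, a subunit of Polycomb repressive complex 1 that keeps cell cycle inhibitors silent in stem cells (chr2:18677018-18686629, plus strand), was 15.4 and 17.2 CPM in hard palate and 17.48 and 17.51 in dorsal tongue. It was 22.7 and 25.8 CPM in ventral tongue and 23.1 and 38.7 in buccal mucosa. The order of the sites was that of Lrig1, with smaller steps. The difference in hard palate was -0.83 ± 0.27 (edgeR adjusted p = 0.107).

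Trp63 encodes p63, the transcription factor that stratified epithelia need in their basal layer (chr16:25683763-25892102, plus strand). It measured 15.3 and 89.9 CPM in buccal mucosa, 62.7 and 88.0 in ventral tongue, 84.9 and 85.9 in dorsal tongue and 120 and 219 in hard palate. Hard palate was above every other sample, and the other 3 sites overlapped. Dlk2, a membrane protein related to the Notch ligands (chr17:46297421-46303271, plus strand), showed the same low sample, with 1.40 and 18.8 CPM in buccal mucosa, 12.2 and 17.98 in ventral tongue, 13.7 and 15.7 in dorsal tongue and 21.4 and 25.9 in hard palate. Basal keratinocyte genes summed to 7736 and 9523 CPM in the hard palate samples and to 455 to 6518 at the other sites. The part of this in the levels of Trp63 and Dlk2 was not tested.

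Neither Trp63 nor Dlk2 passed in hard palate, with log2 differences of 0.99 ± 0.56 (edgeR adjusted p = 0.316) and 0.56 ± 0.70 (0.662). With no filter on low counts Trp63 passed there, at 1.01 (0.0348). Without buccal mucosa replicate 1, which leaves the buccal sample poor in keratinocyte RNA, both passed, at 1.64 (adjusted p = 0.00532) for Trp63 and 1.57 (0.00384) for Dlk2. Without buccal mucosa replicate 2 the differences were 0.73 (0.112) and 0.26 (0.461). By edgeR and by DESeq2, 0 of the 7 genes passed in ventral tongue, where 1.29% of all genes did, and 1 was at an unadjusted p under 0.05 (Igfbp5).

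The position along the block was compared by section number alone, as sections 11-20 against sections 1-10 of the same sample, with the sample as a block. The labels do not say which end is the surface. In every sample, the section with the highest mean log2 level of the 20 keratinocyte genes lay among sections 1 to 6. Of the 7 genes, Lrig1, Igfbp5 and Bmi1 were higher in sections 11-20 and none was lower; 32.3% of the 15312 genes tested passed, 18.5% as higher and 13.8% as lower.

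Lrig1 was higher in sections 11-20 in 8 of 8 samples. From sections 1-10 to 11-20 it went from 16.1 to 23.5 and from 43.9 to 53.9 CPM in the buccal samples, from 7.54 to 16.5 and from 7.99 to 13.7 in dorsal tongue, from 4.15 to 4.70 and from 3.71 to 9.29 in hard palate, and from 15.9 to 23.0 and from 14.1 to 23.2 in ventral tongue. The log2 difference was 0.67 ± 0.11 (edgeR adjusted p = 0.00113). In blocks of 5 sections it was higher at each step in both samples of buccal mucosa, dorsal tongue and ventral tongue, for example 5.91, 8.68, 12.95 and 19.9 CPM in dorsal tongue replicate 1. In hard palate it was highest in sections 16-20, at 6.06 and 12.1 CPM, and lowest in sections 11-15 of replicate 1 (3.32) and sections 6-10 of replicate 2 (3.11).

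Igfbp5 was also higher in sections 11-20 in 8 of 8 samples, by 0.73 ± 0.14 on the log2 scale (edgeR adjusted p = 0.00241). It went from 362 to 769 and from 829 to 1023 CPM in buccal mucosa, from 510 to 690 and from 466 to 699 in dorsal tongue, from 79.6 to 219 and from 103 to 310 in hard palate, and from 630 to 828 and from 616 to 756 in ventral tongue. The steepest profile was that of hard palate, where the overall level was lowest, with 62.5, 108, 186 and 251 CPM in the 4 blocks of replicate 1 and 70.2, 138, 250 and 359 in those of replicate 2. In dorsal tongue it was likewise highest in sections 16-20, at 738 and 765 CPM. In the other 4 samples the highest block was sections 11-15, followed by a lower last block, from 780 to 713 and from 1087 to 948 CPM in buccal mucosa and from 839 to 813 and from 775 to 740 in ventral tongue. The fitted difference was 1.33 in hard palate, 0.79 in buccal mucosa, 0.42 in ventral tongue and 0.41 in dorsal tongue. The test of whether it depended on the site gave an edgeR adjusted p of 0.203, where 0.359% of all genes and 0 of the 7 passed (0 with DESeq2; 2 at an unadjusted p under 0.05, Igfbp5 and Lgr5). It was 0.0124 without buccal mucosa replicate 1 and 0.0174 without replicate 2.

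Bmi1 was higher in sections 11-20 in 7 of 8 samples, by 0.53 ± 0.13 (edgeR adjusted p = 0.0106). It went from 20.04 to 28.4 and from 34.6 to 41.9 CPM in buccal mucosa, from 12.9 to 20.9 and from 11.7 to 22.5 in dorsal tongue, from 17.9 to 16.4 and from 12.2 to 17.8 in hard palate, and from 14.8 to 32.8 and from 18.6 to 26.8 in ventral tongue. The exception was hard palate replicate 1. Leaving out any single sample kept the calls of all 3 genes.

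**Figure D2:**
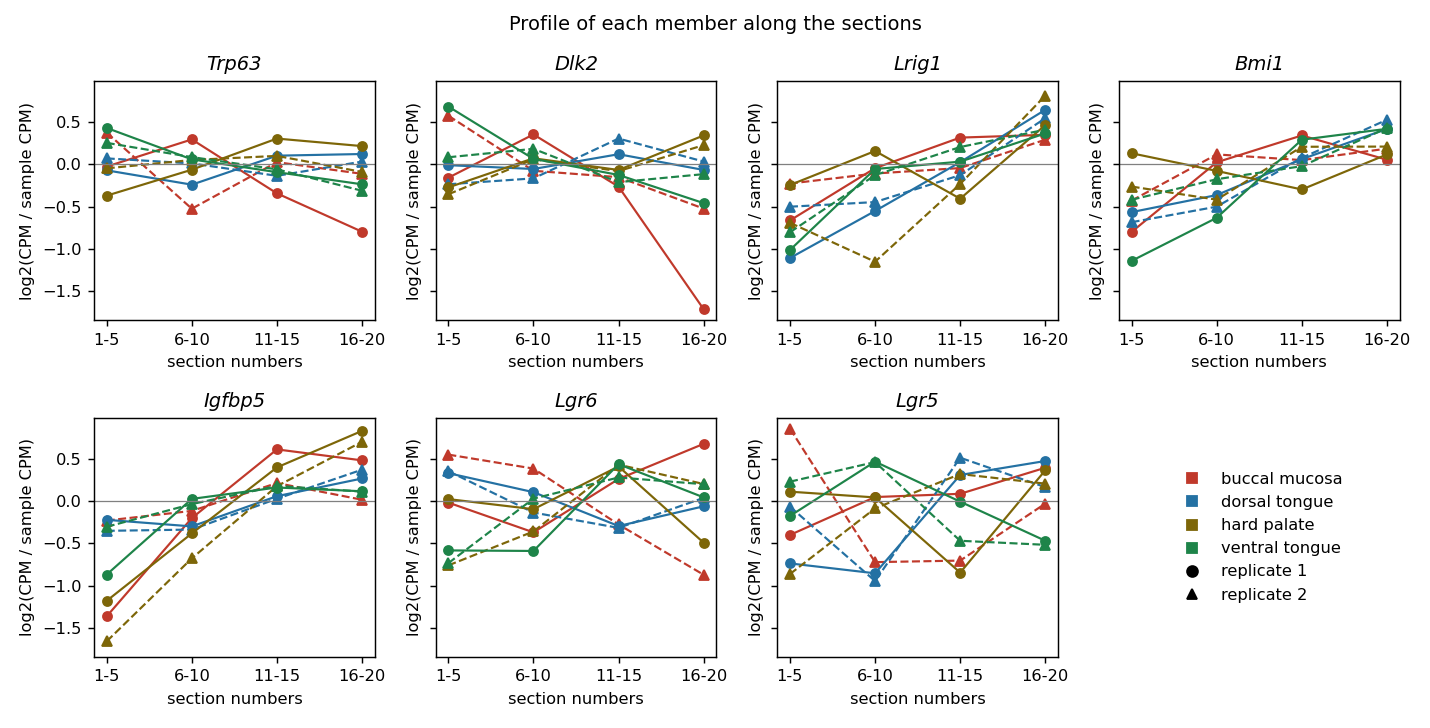
Profile of each gene along the block, as log2 of the CPM in blocks of 5 sections over the CPM of the whole sample; colours are sites, solid lines with circles replicate 1 and dashed lines with triangles replicate 2. Lrig1 is highest in sections 16-20 in all 8 samples, and Igfbp5 there in 4 samples and in sections 11-15 in the other 4, while the Lgr5 lines of dorsal and ventral tongue cross.

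The promoters of these 3 genes are shown because the genes rose together along the block, with that of Lgr6 as the gene whose level differed between sites. Of the 7 genes, 5 had an entry in RefSeq's promoter windows (build GRCm38.p6), which run from 250 bases before to 50 after the start of transcription. Capitals mark GGGCGG, the GC box, on either strand, and CANNTG, the E-box, which reads the same on both strands. No 2 kinds of motif overlapped, but neighbouring GC boxes in Bmi1 share bases.
Lrig1 (chr6:94700096-94700395, minus strand): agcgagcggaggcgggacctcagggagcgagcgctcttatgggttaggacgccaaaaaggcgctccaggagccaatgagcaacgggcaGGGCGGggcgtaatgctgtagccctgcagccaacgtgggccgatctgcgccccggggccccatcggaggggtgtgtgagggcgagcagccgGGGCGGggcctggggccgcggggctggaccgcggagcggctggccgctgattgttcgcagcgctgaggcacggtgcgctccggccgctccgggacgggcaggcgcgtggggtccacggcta
Igfbp5 (chr1:72874816-72875115, minus strand): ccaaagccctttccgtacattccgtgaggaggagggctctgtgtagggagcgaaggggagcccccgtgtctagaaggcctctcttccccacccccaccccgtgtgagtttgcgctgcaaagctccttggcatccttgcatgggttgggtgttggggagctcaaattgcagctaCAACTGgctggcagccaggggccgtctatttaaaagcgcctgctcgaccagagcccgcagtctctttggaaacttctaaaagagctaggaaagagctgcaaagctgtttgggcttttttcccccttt
Bmi1 (chr2:18676768-18677067, plus strand): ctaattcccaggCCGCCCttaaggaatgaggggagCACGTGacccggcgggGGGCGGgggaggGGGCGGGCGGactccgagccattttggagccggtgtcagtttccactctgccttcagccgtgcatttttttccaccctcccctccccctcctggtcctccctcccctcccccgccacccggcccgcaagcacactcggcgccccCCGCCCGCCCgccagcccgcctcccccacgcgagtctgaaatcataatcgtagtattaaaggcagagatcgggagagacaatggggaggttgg
Lgr6 (chr1:135105227-135105526, minus strand): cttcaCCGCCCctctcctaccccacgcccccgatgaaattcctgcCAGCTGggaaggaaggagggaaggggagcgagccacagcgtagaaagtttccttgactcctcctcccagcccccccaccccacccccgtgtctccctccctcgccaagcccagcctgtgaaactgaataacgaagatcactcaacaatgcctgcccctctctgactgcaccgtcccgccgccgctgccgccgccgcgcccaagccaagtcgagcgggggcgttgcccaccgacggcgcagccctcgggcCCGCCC

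Counted from the start of transcription, the 2 GC boxes of Lrig1 began at -162 and -71, and it held no E-box. Bmi1 held 6 GC boxes and 1 E-box, at -215. Igfbp5 held no GC box and 1 E-box, at -77, and Lgr6 held 2 GC boxes and 1 E-box. Of 32851 windows, 35.7% held a GC box, 72.3% an E-box and 13.6% TATAAA on either strand, which none of the 4 held. The share of G and C was 73.0% for Lrig1, 67.7% for Lgr6, 66.3% for Bmi1 and 56.3% for Igfbp5, against a median of 52.7%. Neither motif was thus held by all 3 genes that rose along the block. Lrig1 and Bmi1 both held GC boxes, and Bmi1 and Igfbp5 each held an E-box.

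The other 4 genes did not pass along the block. Trp63 differed by -0.12 ± 0.09 on the log2 scale (edgeR adjusted p = 0.321) and was higher in sections 11-20 in 2 of 8 samples. Without hard palate replicate 1 it passed, at -0.23 (0.0472). In blocks of 5 sections it went from 84.4 to 65.3, 58.8 and 53.2 CPM in ventral tongue replicate 1 and from 105 to 93.4, 84.5 and 70.9 in replicate 2. In dorsal tongue it stayed between 71.9 and 92.4 CPM in both samples. Dlk2 differed by -0.12 ± 0.10 (0.385), Lgr6 by 0.16 ± 0.18 (0.529) and Lgr5 by 0.09 ± 0.20 (0.770).

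For Lgr5 the sites went different ways. In dorsal tongue it went from 4.10 to 9.42 and from 3.73 to 6.49 CPM, whereas in ventral tongue it went from 12.4 to 9.11 and from 8.93 to 4.94. Lgr6 went from 6.67 to 12.1 and from 8.07 to 11.5 CPM in ventral tongue, and from 21.4 to 16.5 and from 28.3 to 24.7 in dorsal tongue. At both tongue surfaces the 2 samples moved the same way, but in buccal mucosa the log2 differences of replicates 1 and 2 were 0.23 and -0.71 for Lgr5 and 0.58 and -1.0 for Lgr6. In hard palate they were -0.20 and 0.69 for Lgr5 and 0.05 and 0.86 for Lgr6. The test of dependence on the site gave edgeR adjusted p of 0.255 for Lgr5 and 0.342 for Lgr6, so neither passed.

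**Figure D3:**
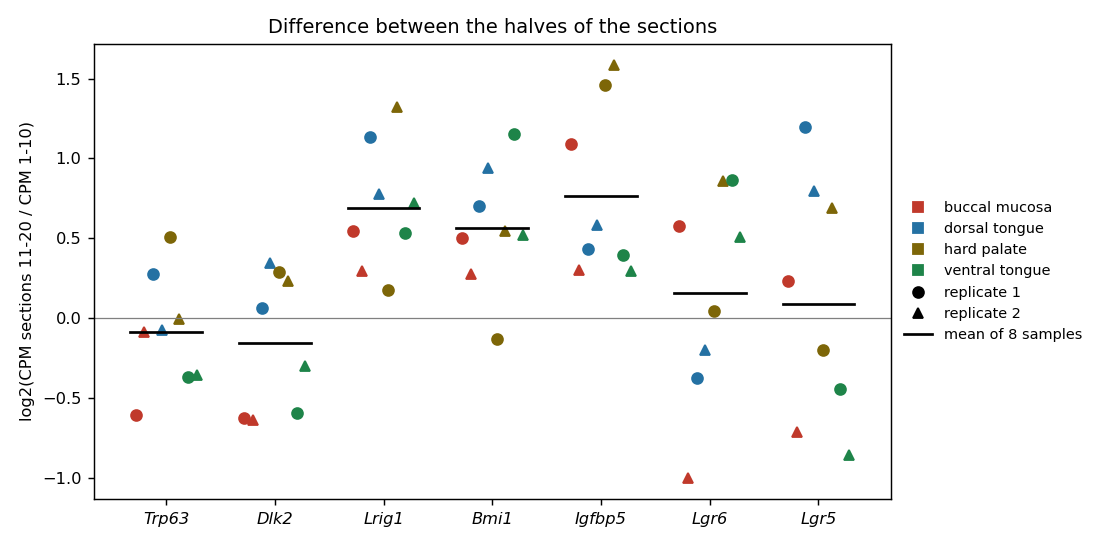
Log2 ratio of the CPM in sections 11-20 to that in sections 1-10 for each gene; each point is a sample, coloured by site, with circles for replicate 1 and triangles for replicate 2, and black lines are means of 8 samples. All 8 points lie above 0 for Lrig1 and Igfbp5 and 7 of 8 for Bmi1.

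Each gene was set against lists of cell type markers over the 20 sections of a sample. The Spearman correlations are descriptions, since sections of a sample share a block and all genes share a section's depth, and no p is given. Averaged over 8 samples, Igfbp5 followed the endothelial and pericyte list (0.80, positive in 8 of 8) and the fibroblast list (0.72, 8 of 8). It also followed the adipocyte list (0.68, 7 of 8) and the nerve list (0.66, 8 of 8). It ran against the differentiated keratinocyte list (-0.68, positive in 0 of 8) and the keratinocyte list (-0.63, 0 of 8). Lrig1 followed the muscle list (0.55, 7 of 8), the endothelial and pericyte list (0.53, 7 of 8) and the nerve list (0.53, 8 of 8), and ran against the keratinocyte list (-0.52, 0 of 8). Bmi1 had means of 0.57 with adipocyte (8 of 8), 0.54 with muscle (8 of 8) and -0.50 with keratinocyte genes (0 of 8). With the differentiated keratinocyte list the mean was -0.59 for Lrig1 and -0.56 for Bmi1 (0 of 8 each). With the basal keratinocyte list the means were smaller in size, and for Igfbp5 and Lrig1 mixed in sign. They were -0.33 for Igfbp5 (positive in 3 of 8), -0.30 for Lrig1 (1 of 8) and -0.39 for Bmi1 (0 of 8). By Pearson correlation of log2 values the means with the keratinocyte list were smaller in size, at -0.48 for Igfbp5, -0.33 for Lrig1 and -0.19 for Bmi1. The part of these cell types in the differences along the block was not tested.

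Trp63 followed the basal keratinocyte list in 8 of 8 samples (0.53). Its mean was 0.31 with the keratinocyte list, 0.03 with the differentiated list and -0.28 with the muscle list. Dlk2 was next in line, with 0.31 for the basal list (6 of 8), and for Lgr6 and Lgr5 no list reached 0.25 in size by Spearman correlation. By Pearson correlation of log2 values the highest were 0.40 for Lgr6 with the endothelial and pericyte list and 0.29 for Lgr5 with the nerve list. Among the genes themselves, Lrig1 and Igfbp5 varied together in 8 of 8 samples (0.57), as did Bmi1 and Igfbp5 (0.52), and Lrig1 and Bmi1 in 7 of 8 (0.40). Dlk2 and Trp63 reached 0.24 (7 of 8).

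**Figure D4:**
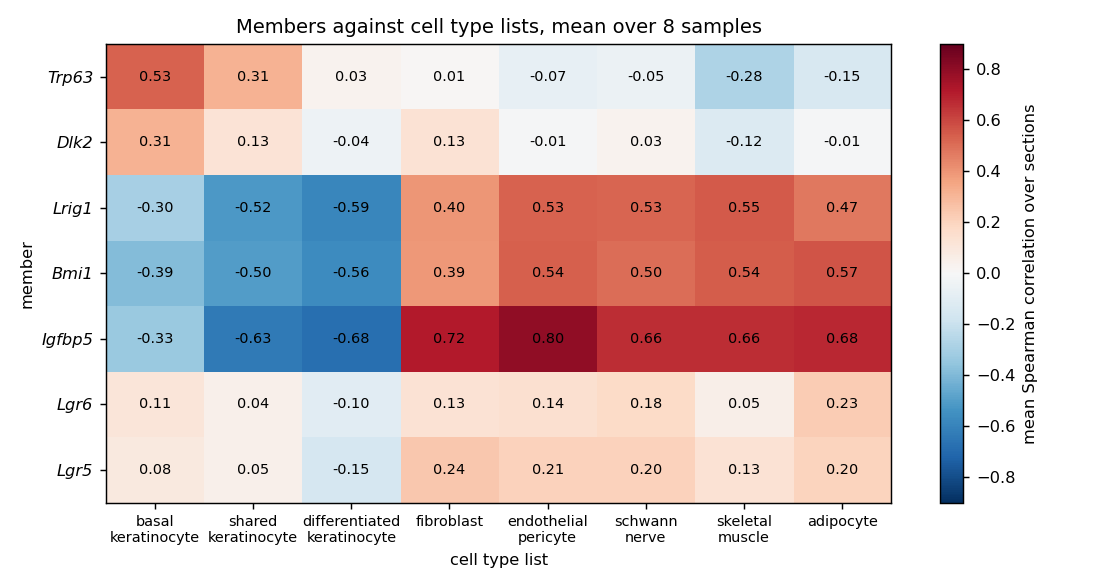
Mean Spearman correlation over the 20 sections of a sample between each gene (rows) and the mean log2 level of the genes in each of 8 cell type lists (columns), averaged over 8 samples. Red is positive and blue negative. Igfbp5, Lrig1 and Bmi1 are blue against the keratinocyte lists and red against the lists of connective tissue, nerve, vessel and muscle, and Trp63 is reddest against basal keratinocytes.

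The genes with the most similar section profiles were ranked by the mean Spearman correlation over 8 samples among 7497 or 7498 genes with a mean of at least 20 CPM. For Trp63 they were Itga6 (0.64), an integrin chain of the hemidesmosome, Dsg3 (0.63), a desmosomal cadherin, and Pbrm1 (0.62), a chromatin remodelling subunit. For Igfbp5 they were Cacna2d1 (0.80), a calcium channel subunit, Rgs5 (0.79), a pericyte gene, and Anxa6 (0.79), an annexin. For Lrig1 they were Ksr1 (0.72), a scaffold of the MAP kinase cascade, Asph (0.69) and Pygm (0.68), the muscle glycogen phosphorylase.

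For Bmi1 the nearest were Fundc2 (0.65), Fhl1 (0.63), a muscle LIM protein, and Lpl (0.63), lipoprotein lipase. Lgr5 was nearest to Ccdc80 (0.50), Fgl2 (0.44) and Marcks (0.41), and Dlk2 to Gclm (0.45), Rin1 (0.45) and Rbl1 (0.44). For Lgr6 the highest value was 0.35, with Parva. With Pearson correlation of log2 values in place of Spearman, 2 of the 3 nearest genes of Igfbp5 were shared, 0 of those of Dlk2 and 1 for each of the other 5 genes.

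As a second view of position, the sections of each sample were split into those rich and those poor in keratinocyte RNA. The split used the mean log2 level of the 20 keratinocyte genes after a running median over 3 sections. None of these 20 genes is among the 7. Since the split was drawn from the same sections, it overlaps the split by number, and it placed 17 of 20 sections in the rich group in dorsal tongue replicate 1 and 18 of 20 in hard palate replicate 1. Lrig1, Igfbp5 and Bmi1 were lower in keratinocyte-rich sections in 8 of 8 samples and Trp63 was higher in 6 of 8, with 38% of 15242 genes passing, 21.6% as lower and 16.5% as higher. The log2 difference was -0.75 ± 0.10 for Lrig1 (edgeR adjusted p = 0.000174), -0.69 ± 0.12 for Igfbp5 (0.00110), -0.54 ± 0.12 for Bmi1 (0.00372) and 0.21 ± 0.08 for Trp63 (0.0488).

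With the split by Krt5 and Krt14, the keratins of the basal layer, Igfbp5 no longer passed (-0.49, edgeR adjusted p = 0.0746), nor did Trp63 (0.22, 0.0607). The 2 splits gave the same label to 7 of 20 sections in dorsal tongue replicate 1 and 10 of 20 in hard palate replicate 1. In each of the other samples they agreed in 18 to 20 sections. The call of Trp63 was also lost without either buccal sample (0.138 and 0.0512), without either ventral tongue sample (0.101 and 0.104) and with read counts in place of UMIs (0.158). The test of dependence on the site passed with edgeR for 0 of the 7 genes, also at an unadjusted p under 0.05, and for 0.177% of all genes.

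The partners of each gene were then counted in lists of its pathway, along the block, where 32.3% of all genes passed, 18.5% as higher and 13.8% as lower. In the R-spondin and Wnt list, 29 of 35 genes were tested, and 1 was higher and 7 were lower in sections 11-20. The total of 8, or 27.6%, is below the 32.3% of all genes. By direction, 24.1% of the list passed as lower, above the 13.8% of all genes, and 3.45% as higher, below the 18.5%. Wnt7b, an epithelial Wnt ligand, fell by 0.64 ± 0.07, Ascl2, a Wnt target in intestinal stem cells, fell by 0.40 ± 0.12, Wnt4, another ligand, fell by 0.37 ± 0.11, and Lrp6, a Wnt co-receptor, was higher by 0.28 ± 0.08 (edgeR adjusted p of 0.000169, 0.0283, 0.0187 and 0.0226). The median of the list was -0.19 on the log2 scale, against 0.02 over all genes. Lgr5 and Lgr6 themselves were not among those that passed.

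In the list of LRIG proteins and the epidermal growth factor receptors, all 15 genes were tested, with 3 higher, 5 lower and a median of -0.34; 53.3% passed, against 32.3% of all genes. The ligands Ereg, Btc and Tgfa fell by 0.79 ± 0.10, 0.59 ± 0.14 and 0.51 ± 0.08, and the receptors Erbb3 and Erbb2 fell by 0.40 ± 0.07 and 0.36 ± 0.08. Egf, Erbb4 and Met, which were higher like Lrig1, differed by 0.59 ± 0.14, 0.53 ± 0.14 and 0.27 ± 0.06 (edgeR adjusted p of 0.00670, 0.0139 and 0.00388). Erbb4 fell by 2.34 ± 0.44 in hard palate (edgeR adjusted p = 0.0224). It was the only 1 of the 15 genes to pass there, where 9.76% of all genes passed, and the list median there was 0.54. Lrig2 and Lrig3, the other members of the Lrig family, were at 41.4 ± 12.6 and 37.5 ± 4.31 CPM in hard palate and at 18.6 ± 4.98 and 23.7 ± 2.54 in ventral tongue (SD, n = 2 each). Their edgeR adjusted p for any difference between the sites was 0.334 and 0.187, so neither passed.

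In the list of insulin-like growth factors and their binding proteins, 15 of 16 genes were tested, 3 were higher and 2 lower along the block, and the median was 0.23. That is 33.3%, close to the 32.3% of all genes. Irs1, the adaptor of the insulin and IGF receptors, was higher by 0.84 ± 0.12, Igf2, a ligand, by 0.74 ± 0.16 and Igfbp4 by 0.35 ± 0.12, while Igfals, which holds insulin-like growth factors in a complex in blood, fell by 0.77 ± 0.21 and Igfbp2 by 0.52 ± 0.11 (edgeR adjusted p of 0.000546, 0.00441, 0.0379, 0.0169 and 0.00332). In the Polycomb list, 15 of 17 genes were tested, and 2 were higher and 2 lower, with a median of -0.10; 26.7% passed, below the 32.3% of all genes. Cbx7 and Rnf2, which sit in the same complex as Bmi1, were higher by 0.42 ± 0.13 and 0.29 ± 0.09, while Cdkn2b, a cell cycle inhibitor under Polycomb control, fell by 0.48 ± 0.12 (edgeR adjusted p of 0.0252, 0.0341 and 0.00873). In hard palate Cdkn2b was higher by 1.78 ± 0.26 (edgeR adjusted p = 0.0105). It was the only 1 of 16 genes tested in this list to pass there, where 9.76% of all genes passed.

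In the p63 list, 20 of 20 genes were tested, 12 were lower in sections 11-20 and 1 was higher, and the median was -0.39. The 12 are 60% of the list, against 13.8% of all genes that passed as lower. Of the list of 20 keratinocyte genes 85% were lower, and of the basal and differentiated keratinocyte lists 50% each. Several genes of the p63 list, Krt5 and Krt14 among them, are also in those lists, so its share cannot be told apart from theirs. Krt14 and Krt5 fell by 0.71 ± 0.23 and 0.54 ± 0.18 Sfn, an epithelial 14-3-3 protein, fell by 0.62 ± 0.22 and Perp, a desmosomal p63 target, fell by 0.60 ± 0.12, while Satb1, a chromatin organiser also expressed in lymphocytes, was higher by 1.17 ± 0.15 (edgeR adjusted p of 0.0342, 0.0345, 0.0468, 0.00300 and 0.000310). Trp63 itself, at -0.12, did not pass. In the Notch list, 17 of 18 genes were tested, with 4 higher and 5 lower and a median of -0.06; 52.9% passed, against 32.3% of all genes. Notch4 and Dll4, which are expressed by endothelial cells, were higher by 0.79 ± 0.16 and 0.77 ± 0.14, as was Hey1, a Notch target, by 0.58 ± 0.17, and Hes1 and Notch2 fell by 0.30 ± 0.07 each (edgeR adjusted p of 0.00301, 0.00219, 0.0242, 0.00748 and 0.00883).

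In a list of other markers used for epithelial stem cells, 23 of 24 genes were tested, with 3 higher and 5 lower and a median of 0.06; 34.8% passed, close to the 32.3% of all genes. Aldh1a1, a retinaldehyde dehydrogenase, was higher in sections 11-20 by 1.13 ± 0.12 and Cd34, also a marker of vessels, by 0.58 ± 0.17. Prdm1, a transcription factor of differentiating keratinocytes, fell by 0.72 ± 0.08, Hopx by 0.54 ± 0.09 and Col17a1, a hemidesmosomal collagen, by 0.51 ± 0.15 (edgeR adjusted p of 0.000153, 0.0195, 0.000146, 0.00121 and 0.0205). Aldh1a1 fell by 2.22 ± 0.50 in hard palate (edgeR adjusted p = 0.0379). It was the only 1 of the 23 genes to pass there, where 9.76% of all genes passed, and the list median there was 0.45.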

How the data were processed

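Gene by section tables of UMI counts from 8 tomo-seq samples were used as the authors deposited them. The deposited read counts served as an alternative, and the deposited transcript numbers, which are expected or estimated counts, were rounded and served as another. Per the labels' protocols, libraries followed CEL-seq2 and were sequenced paired-end. Per the submitters' processing notes, reads were handled with Trim Galore 0.6.10 and STAR 2.7.9a on GRCm38, and the program that made the counts is not stated in these notes. There are 4096 possible UMIs, and the highest count of any of the 7 genes in a section was 1325. Entries naming several genes held 0.185% to 0.251% of UMIs and stayed in the tests and out of the ranking of similar genes.

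Members and lists were chosen with earlier results of these data known. Counts were summed per sample or per sample and group of sections, filtered with filterByExpr, scaled by TMM and fitted with edgeR 4.0.16 in R 4.3.3 (quasi-likelihood); DESeq2 1.42.0 was an alternative. All 8 samples entered each fit, and the scripts were tested on simulated data with known fold changes. Genes of the lists were named by their 3 largest called differences along the block, and others of the lists, those named in hard palate and relatives of the 7 genes included, were added after their values were seen; 1 gene that this rule names is not reported here. Coordinates are those of GENCODE M21. Poisson intervals cover counting error only. Read depth was 1.91 to 2.74 reads per UMI.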

Additional observations from a re-analysis of the deposited data

Results flagged for a closer look

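For 3 genes, both samples of one site moved one way along the block and both samples of another site the opposite way. The differences between these pairs of sites were not tested; the test over all 4 sites did not pass for any of them. As the mean of 2 samples on the log2 scale, sections 11-20 over sections 1-10, Lgr5 was at 1.00 in dorsal tongue and -0.65 in ventral tongue (edgeR adjusted p for dependence on the site 0.255). Lgr6 was at 0.69 in ventral tongue and 0.45 in hard palate, and at -0.29 in dorsal tongue (0.342). Dlk2 was at 0.20 in dorsal tongue and 0.26 in hard palate, and at -0.63 in buccal mucosa and -0.44 in ventral tongue (0.337).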

How the results depend on the processing

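The calls of Lrig1, Igfbp5 and Bmi1 along the block kept their direction and passed under all 15 alternatives tried, including without hard palate and, for comparison by the ends alone, sections 16-20 against 1-5. The calls between sites did not hold up as well. Of the 7 genes, the number that passed for any difference was 1 (887 of all genes), and became 3 with no filter on low counts (4522), 3 with DESeq2 (3294), 3 when scaled to the keratinocyte list (7867) and 0 from sections 1-5 only (78). For buccal mucosa it was 1 (134), and became 2 with no filter (2584), 2 with DESeq2 (1392), 4 when scaled to the keratinocyte list (14189), and 0 with read counts (169), with keratinocyte-rich sections only (2) and with sections 1-5 only (0). For dorsal tongue it went from 1 (156) to 0 with read counts (148) and with keratinocyte scaling (74). For hard palate it went from 2 (1817) to 3 with no filter (3728), to 1 in keratinocyte-rich sections only (812) and to 0 with sections 1-5 only (25) or keratinocyte scaling (459). For dependence of the block difference on site it went from 0 (55) to 3 with no filter (1958), for keratinocyte-rich against poor sections from 4 (5798) to 2 with the split by Krt5 and Krt14 (3308), and for its dependence on site from 0 (27) to 1 with no filter (1326). The cause was not tested.

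Deviations of same-numbered samples correlated at 0.53 for dorsal with ventral tongue and from -0.27 to 0.08 for the other pairs of sites, and the labels give the numbers no meaning, so pairing was not shown over all sites but may hold for the 2 tongue surfaces. Their salivary gland genes summed to 2.07 and 2.47 CPM in replicates 1 and to 333 and 329 in replicates 2. With the replicate number as a block, 0 of the 7 genes passed for any difference (Lgr6 adjusted p = 0.0548), 0 for buccal mucosa (0.0912), 0 for dorsal tongue (0.100) and 2 for hard palate; over all genes 362 passed for any difference against 887, and 2 against 134 in buccal mucosa. With a block for the tongue samples alone, chosen after seeing the data, 0 of the 7 genes passed for any difference (119 of all genes), buccal mucosa (0), dorsal tongue (57), hard palate (750) or dorsal against ventral tongue (0), with adjusted p of 0.0782, 0.219, 0.178 and, in the last, 0.945 for Lgr6, and in hard palate 0.0699 for Igfbp5 and 0.0830 for Lrig1. The log2 difference of Lgr6 was then -2.04 in buccal mucosa and 1.45 in dorsal tongue, and in hard palate it was -2.24 for Igfbp5 and -2.17 for Lrig1.

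Leaving out single samples, the number of the 7 genes that passed ranged from 0 to 6 for any difference, buccal mucosa and hard palate, from 0 to 2 for dorsal tongue, from 0 to 1 for ventral tongue and for both tests of dependence on site, and from 3 to 4 along the block and between keratinocyte-rich and poor sections. The 6 came without buccal mucosa replicate 1. For any difference and each site, more of all genes passed without either buccal sample than with all 8, and fewer without any other. Signs turned only for values that did not pass or under keratinocyte scaling. Along the block Lgr5 ranged from -0.059 to 0.22 without single samples, at -0.059 without dorsal tongue replicate 1 and -0.021 without hard palate replicate 2, and Lgr6 was -0.0037 for sections 16-20 against 1-5. In keratinocyte-rich sections Lgr5 ranged from -0.18 to 0.047 without single samples, with the highest without dorsal tongue replicate 2, and Lgr6 from -0.19 to 0.046, at 0.034 without hard palate replicate 2, 0.046 without ventral tongue replicate 1 and 0.045 without replicate 2; it was 0.0031 with no filter. Keratinocyte scaling moved the median of all genes to 3.31 in buccal mucosa, -1.29 in dorsal tongue and -1.26 in hard palate; Lgr6 was then 1.11 in buccal mucosa and -0.50 in hard palate, and Dlk2 -0.027 in hard palate. Lgr6 was then 0.22 in dorsal tongue, and its site calls were lost. Sections under 50000 UMIs, left out as a setting chosen after seeing the data, moved no call. Depth limited Dlk2 in buccal mucosa replicate 2 (11 UMIs) and Lgr6 there (28 UMIs).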

Other observations

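Rspo4, another R-spondin, measured 6.58 ± 4.37 CPM in hard palate and 0.92 ± 1.30, 0.77 ± 0.56 and 0.20 ± 0.21 in buccal mucosa, ventral tongue and dorsal tongue (SD, n = 2 each). Dlk1, the paralog of Dlk2, measured 34.0 ± 31.7 CPM in buccal mucosa, 27.0 ± 1.98 in ventral tongue, 7.91 ± 2.49 in hard palate and 3.77 ± 0.599 in dorsal tongue; its edgeR adjusted p for any difference between the sites was 0.0943. Trp73, a relative of Trp63, measured 14.4 ± 1.18 CPM in hard palate and 5.57 ± 1.15 to 6.11 ± 1.48 at the other 3 sites. The edgeR adjusted p for any difference between the sites was 0.209 for Rspo4 and 0.764 for Trp73, so neither passed.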
